A study of Mus musculus with 14 samples.

Results

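The comparison described here sets mice after 30 days of social defeat (SDS30, 5 libraries) against control mice (3 libraries) for H3K4me3, trimethylation of lysine 4 of histone H3, in the prefrontal cortex. These 8 libraries were taken by their labels from 14 in the series, which also holds 5 libraries after 10 days of defeat (SDS10) and 1 input library that was not analysed here. All mice were adult C57BL/6J males of 10 to 12 weeks, a single inbred strain. Defeated mice met an unfamiliar aggressive CD1 mouse briefly each day and lived beside one behind a perforated wall between sessions, and control mice lived in divided cages with no aggressor. SDS30 mice had behavioural tests shortly before the end, and the cortex was dissected 24 hours after the final encounter. The labels give 1 batch date for all libraries and do not say whether a library is 1 mouse or a pool, and p-values here reflect only how far these libraries scatter, which may be technical.

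H3K4me3 is laid down by the SET1 and MLL methyltransferase complexes and removed by KDM5 demethylases. It is strongest on the nucleosomes just downstream of the start sites of active genes, above all where the DNA is rich in CpG, which the CXXC domain of the SET1 complexes' partner CFP1 recognises when unmethylated. In brain, several of its writers and erasers are genes of human neurodevelopmental disorders.

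The deposited table gives a normalised read value for 153207 peak summits, single positions inside 48695 called regions. A region value is the sum over its summits. The 3 control libraries held 10887911, 8805448 and 6642802 reads on summits, and the 5 SDS30 libraries held 9687397, 4750679, 7237336, 8808948 and 10524293, so that SDS30 replicate 2 was the shallowest. Along the first principal component of the regions, which held 28.3% of the variance, the libraries separated within groups: control 1 and SDS30 2, 3 and 4 lay on one side, and control 2 and SDS30 1 and 5 on the other. Defining markers of cortical excitatory neurons had tested regions, with control values of 71.3 to 160 at Slc17a7, the vesicular glutamate transporter, and 435 to 665 at Neurod2, a neuronal transcription factor. Markers of other cells also had tested regions. Control values were 27.3 to 33.9 at Gad1 (inhibitory neurons) and 461 to 646 at Mbp and 213 to 266 at Olig2 (oligodendrocytes). They were 374 to 515 at Slc1a3 (astrocytes) and 152 to 165 at Cldn5 (vessels). Gfap, Cx3cr1, Aif1 and Ttr had no tested region. In whole tissue, fewer cells of a type and less of the mark per cell cannot be told apart.

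No region passed the threshold. Of 48174 regions tested with limma, 0 had an adjusted p under 0.05 (0.00% called), and 1179 (2.45%) had an unadjusted p under 0.05, of which 691 were higher (1.43%) and 488 lower (1.01%) in SDS30. edgeR's quasi-likelihood test and DESeq2 on the recovered reads also called 0, with 1159 and 1158 regions at an unadjusted p under 0.05. The split by direction was even with edgeR (575 higher and 584 lower) and nearly so with TMM scaling (609 and 587). Single summits gave the same outcome, with 0 of 152270 called and 5194 (3.41%) at an unadjusted p under 0.05, a count that ran from 3379 without SDS30 replicate 2 to 8628 without SDS30 replicate 5. The 95% interval of a region's log2 fold change reached in the median 0.53 to either side, and for 80.4% of regions it lay wholly between -1 and 1. Every gene below is therefore described by its values, and none of the named regions passed the adjusted test.

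The groups also differed in where the reads fell around start sites, and start sites are classed below by the CpG content of their promoters. To show what that content looks like, promoter sequences of 6 of the named genes are printed first: 3 genes whose regions had higher values in SDS30 and 3 whose regions had lower values. Each sequence runs 5′ to 3′ on the gene's strand from 250 bases before to 50 bases after the RefSeq start site (GRCm38.p6), with every CpG in capitals.
Ccnb1: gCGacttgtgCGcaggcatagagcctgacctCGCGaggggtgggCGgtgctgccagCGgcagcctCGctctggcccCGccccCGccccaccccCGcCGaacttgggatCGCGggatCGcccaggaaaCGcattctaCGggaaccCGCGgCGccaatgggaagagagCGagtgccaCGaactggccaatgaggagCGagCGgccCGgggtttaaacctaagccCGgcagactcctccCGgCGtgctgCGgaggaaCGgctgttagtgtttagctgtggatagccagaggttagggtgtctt
Tmem141: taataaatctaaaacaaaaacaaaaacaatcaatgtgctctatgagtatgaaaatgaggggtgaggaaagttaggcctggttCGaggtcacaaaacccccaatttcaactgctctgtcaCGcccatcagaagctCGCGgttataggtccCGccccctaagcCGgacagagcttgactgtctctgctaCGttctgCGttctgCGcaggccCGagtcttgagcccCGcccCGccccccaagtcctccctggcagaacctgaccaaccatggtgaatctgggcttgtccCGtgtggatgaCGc
Plekhb1: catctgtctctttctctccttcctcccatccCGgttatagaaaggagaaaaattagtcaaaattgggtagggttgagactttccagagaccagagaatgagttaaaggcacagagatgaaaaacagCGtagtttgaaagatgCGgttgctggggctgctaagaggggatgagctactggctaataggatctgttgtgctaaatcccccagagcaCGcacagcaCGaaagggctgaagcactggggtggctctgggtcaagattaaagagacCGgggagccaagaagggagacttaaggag
Clock: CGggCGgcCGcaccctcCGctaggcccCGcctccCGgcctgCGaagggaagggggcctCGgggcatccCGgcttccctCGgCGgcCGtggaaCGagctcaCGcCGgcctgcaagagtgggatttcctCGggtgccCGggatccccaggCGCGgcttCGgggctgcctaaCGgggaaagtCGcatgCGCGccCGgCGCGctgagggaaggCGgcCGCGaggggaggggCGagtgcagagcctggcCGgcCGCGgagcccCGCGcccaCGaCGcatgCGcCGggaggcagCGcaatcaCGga
Bend3: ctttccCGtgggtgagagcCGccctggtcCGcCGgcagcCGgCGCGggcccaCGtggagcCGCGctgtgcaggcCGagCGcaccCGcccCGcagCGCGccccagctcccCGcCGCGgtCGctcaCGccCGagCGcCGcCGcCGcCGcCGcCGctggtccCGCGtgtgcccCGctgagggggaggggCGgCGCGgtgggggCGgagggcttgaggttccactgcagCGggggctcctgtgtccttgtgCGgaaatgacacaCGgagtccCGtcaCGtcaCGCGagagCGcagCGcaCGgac
Sccpdh: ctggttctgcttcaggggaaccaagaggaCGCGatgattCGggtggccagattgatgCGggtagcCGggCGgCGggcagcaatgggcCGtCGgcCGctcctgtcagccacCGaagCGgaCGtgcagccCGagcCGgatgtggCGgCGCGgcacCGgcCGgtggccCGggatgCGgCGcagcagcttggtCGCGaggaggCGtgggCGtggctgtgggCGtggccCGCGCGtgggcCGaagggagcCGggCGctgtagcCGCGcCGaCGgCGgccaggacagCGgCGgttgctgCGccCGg

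The 3 higher promoters were those of Ccnb1 (chr13:100786437-100786736, minus strand), Tmem141 (chr2:25621953-25622252, minus strand) and Plekhb1 (chr7:100662345-100662644, minus strand). They held 29, 14 and 6 CpG. The 3 lower ones were those of Clock (chr5:76304743-76305042, minus strand), Bend3 (chr10:43478890-43479189, plus strand) and Sccpdh (chr1:179667981-179668280, plus strand). They held 42, 46 and 43 CpG, against a median of 7 over all 32851 start sites of the table and 21 over the 14076 start sites with a summit in the windows used below. Ccnb1, a higher gene, falls in the high CpG class used below together with the 3 lower genes. Since the genes were chosen by their values, the CpG counts of these 6 are a description.

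Shares of reads were lower just downstream of start sites and higher further away, on both sides, in SDS30. The distance bins were chosen after the values had been seen, so the shares and their lack of overlap are a description. Summits 0 to 250 bp downstream of the nearest start site held 15.65%, 15.56% and 15.56% of all reads in the controls. They held 15.03%, 13.96%, 15.15%, 14.97% and 15.12% in SDS30, so all 5 libraries lay below all 3 controls. Summits 1000 to 1500 bp downstream held 4.78%, 4.87% and 4.87% in the controls and 5.13%, 5.19%, 5.004%, 4.98% and 5.06% in SDS30, so all 5 lay above. Between 1500 and 2000 bp downstream the groups did not overlap either, at 2.04% to 2.12% in the controls and 2.16% to 2.31% in SDS30. Upstream, the share at 1500 to 2000 bp was also without overlap, at 0.497% to 0.508% in the controls and 0.5096% to 0.540% in SDS30, and at 1000 to 1500 bp it was 0.967% to 1.00005% and 1.004% to 1.07%. From 1000 bp upstream to the start site the groups overlapped. They also overlapped at 250 to 500 bp downstream, at 14.44% to 14.92% in the controls and 13.35% to 14.54% in SDS30. At 500 to 750 bp downstream they overlapped as well, at 8.76% to 8.97% and 8.70% to 9.01%. Over summits, the median log2 fold change was -0.08 at 0 to 250 bp, where 33.8% of 15284 tested summits were higher, and 0.09 at 1500 to 2000 bp, where 64.6% of 4753 were higher.

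**Figure D1:**
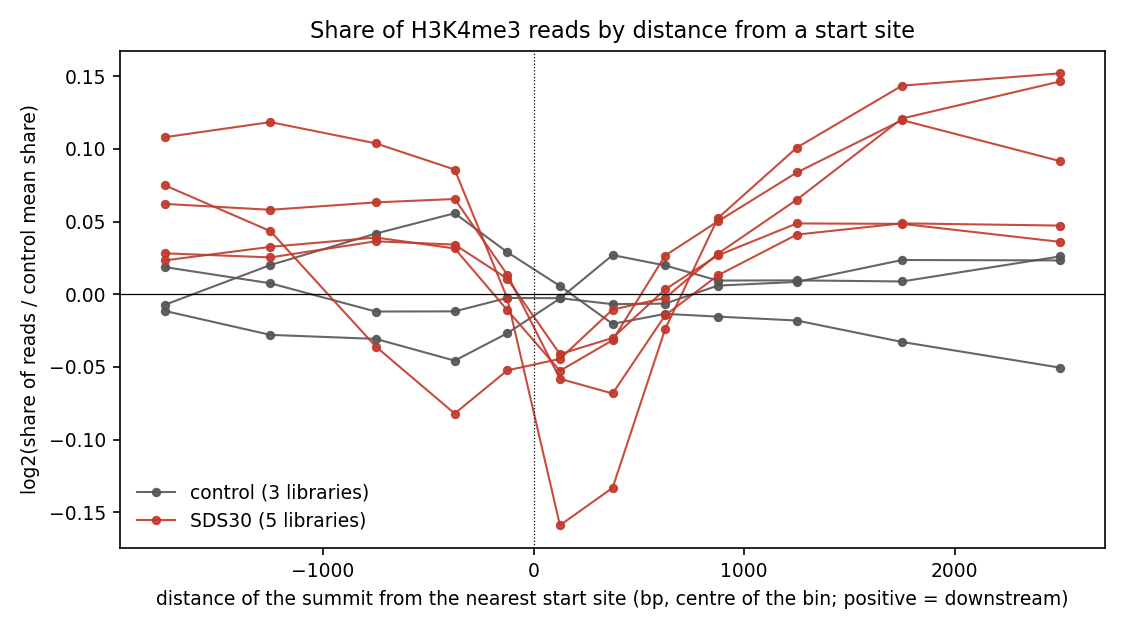
Share of all reads on summits in each bin of distance from the nearest start site, as log2 of the share over the mean share of the 3 controls; each line is 1 library (grey, control; red, SDS30). All 5 SDS30 lines lie below all controls at 0 to 250 bp and above them from 1000 to 2000 bp downstream; SDS30 replicate 2 is the line farthest below, with 13.96% of its reads at 0 to 250 bp.

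The flank to core ratio puts this in 1 value per library: reads on summits 1000 to 2000 bp downstream (the flank) over reads on summits 0 to 500 bp downstream (the core). These bounds were chosen after the shares above had been seen in the same libraries, so the ratio is a description and has no test. The ratio was 0.227, 0.229 and 0.232 in the controls and 0.252, 0.274, 0.243, 0.247 and 0.247 in SDS30. All SDS30 libraries lay above all controls, with the highest value in SDS30 replicate 2. The mean was 0.229 ± 0.0027 (SD, n = 3) in controls and 0.253 ± 0.0126 (SD, n = 5) in SDS30, a log2 difference of 0.14. Without SDS30 replicate 2 the log2 difference was 0.11. The SDS10 libraries, whose comparison shares these controls, had ratios of 0.226, 0.221, 0.244, 0.244 and 0.236.

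The ratio was also higher where other choices of sites were made. Where flank and core summits lay in the same called region, it was 0.525, 0.511 and 0.522 in controls and 0.581, 0.658, 0.561, 0.581 and 0.550 in SDS30. At start sites with no other within 10 kb the log2 difference was 0.16, and with the flank taken upstream in place of downstream it was 0.12. These sets share summits with the first and are not independent of it. The share of reads in regions beyond 2 kb of a gene boundary was 16.8%, 16.8% and 17.1% in the controls and 16.8%, 18.6%, 17.0%, 17.5% and 17.5% in SDS30, which overlapped (exact permutation p = 0.232, adjusted over 8 measures 0.619). SDS30 replicates 1 and 3 lay within the range of the controls. The part of this share and of depth in the ratio was not tested.

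The difference in the core was ordered by CpG content. Start sites were split by the CpG count of their 300 bases into 3 classes of like size, low (up to 16), middle (up to 26) and high (above 26). The median log2 fold change of core summits was -0.01, -0.08 and -0.12 from the low to the high class, and 52.0%, 65.7% and 73.7% of core summits were lower in SDS30. Flank summits of the 3 classes had medians of 0.07, 0.07 and 0.08. In the low class the ratio was 0.2365 to 0.249905 in controls and 0.249888 to 0.268 in SDS30, so that the groups just touched, with a log2 difference of 0.08. In the middle and high classes the groups did not overlap, and the difference was 0.14 in the middle class. The differences between classes were not tested. In the high class it was 0.266, 0.258 and 0.264 in controls and 0.297, 0.339, 0.286, 0.295 and 0.2815 in SDS30.

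**Figure D2:**
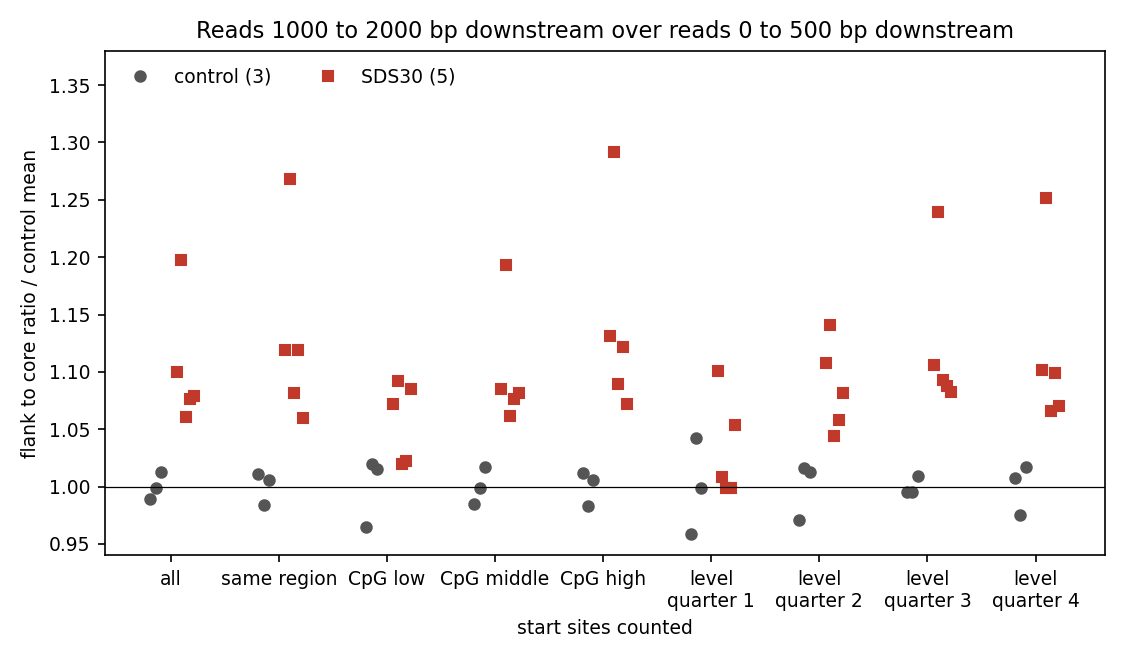
Flank to core ratio of each library divided by the mean of the 3 controls, for all start sites, for flank and core in the same region, by class of CpG count and by class of the level of the core (1 is weakest); circles are controls and squares SDS30. The groups overlap in the low CpG class and in the weakest level class, and are apart in the other 7 sets.

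Strong summits were lower in SDS30 at each of 3 positions, so level and position were taken apart. With all tested summits split by mean value into 5 classes, in the strongest class the median log2 fold change was -0.10 in the core, -0.04 in the flank and -0.08 beyond 5 kb of a start site. In the weakest class these medians were 0.04, 0.12 and 0.08. The core was thus the lowest and the flank the highest of the 3 positions in each of the 5 levels. After cyclic loess scaling, which removes a dependence on level, core medians were between -0.05 and -0.02 and flank medians between 0.04 and 0.05 over the 5 levels. Medians beyond 5 kb of a start site were between -0.002 and 0.01 after this scaling. The order of the CpG classes in the core was also the same in each level: in the weakest the medians were 0.07, -0.02 and -0.04, and in the strongest -0.05, -0.09 and -0.12.

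**Figure D3:**
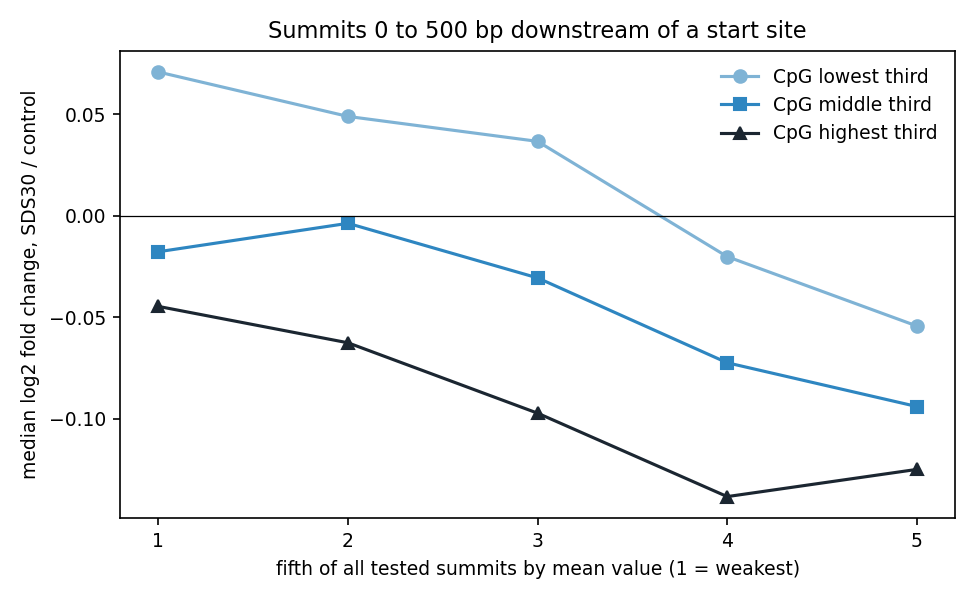
Median log2 fold change (SDS30 over control) of summits 0 to 500 bp downstream of a start site, by class of mean value (1 is weakest) and of CpG count. In each of the 5 level classes the median falls from low to high CpG, and its lowest value is -0.14, for high CpG in level class 4.

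Regions also differed by size, and size went together with level. The median value was 21.3 in regions of 1 summit and 366 in regions of 5 to 9 summits. The part of level in the differences by size was not tested. The 20781 tested regions of 1 summit had a median log2 fold change of 0.09, and 62.7% were higher in SDS30. The 8935 regions of 5 to 9 summits had a median of -0.04, and 36.5% were higher. Regions of 1 summit had medians of 0.10 inside genes, 0.08 outside genes and 0.09 within 2 kb of a start site. Of 19919 regions with 3 or more tested summits, 18.1% had all summits on one side of 0, and the other 16318 held summits of both signs. The share of reads in regions of 1 summit overlapped between the groups, at 6.596% to 7.04% in controls and 6.87% to 8.49% in SDS30 (exact permutation p = 0.232, adjusted over 8 measures 0.619).

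Within regions, a summit's share of its own region was tested, and 0 of 116717 summits passed the threshold (5355, or 4.59%, at an unadjusted p under 0.05; 2.71% with a higher and 1.88% with a lower share). The smallest p belonged to a summit 1088 bp downstream of a start site in the region of Ndufc2, a subunit of respiratory complex I. It held 3.10%, 1.51% and 2.32% of its region in the controls and 7.15%, 7.76%, 6.91%, 4.81% and 5.65% in SDS30 (log2 difference 1.505 ± 0.23 (SE), limma adjusted p = 0.188). A summit 795 bp downstream, in the region shared by Sdf2 and Supt6, held 2.47% to 4.44% in controls and 5.56% to 9.71% in SDS30; Supt6 encodes a histone chaperone of transcript elongation. The lower shares lay near start sites. At Ssx2ip, a centrosome protein, a summit at 113 bp held 14.5%, 15.5% and 15.4% in controls and 10.4%, 11.0%, 9.59%, 9.09% and 9.48% in SDS30. At Prkcb, protein kinase C beta, a summit at 203 bp held 12.9% to 15.5% in controls and 7.39% to 10.2% in SDS30. None of the 4 passed the adjusted test, and in each the groups did not overlap.

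The genes with the smallest region p-values and groups that do not overlap were then taken, 8 in each direction. Over all tested regions, all SDS30 values lay above all controls in 559 (1.16%) and below in 567 (1.18%). Of 14236 protein-coding genes with a tested region, 57 (0.40%) had all SDS30 values above all controls and 347 (2.44%) had all below, and 47 (0.33%) were higher and 338 (2.37%) lower at an unadjusted p under 0.05. The median over these genes was -0.04, and 35.3% were higher. A gene has the value of the strongest region within 2 kb of either end. The limma adjusted p of each of the 16 was 0.9999.

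Among the higher genes, Ccnb1 encodes cyclin B1, which drives entry into mitosis. Its region (strongest summit on chromosome 13 at 100786783 to 100786784, mm10, 298 bp upstream of the start site) had values of 126, 125 and 129 in controls and 164, 234, 166, 173 and 156 in SDS30. All SDS30 libraries lay above the controls, and SDS30 replicate 2 stood highest (log2 fold change 0.48 ± 0.16 (SE)). Plekhb1, a pleckstrin homology domain protein, had a weak single summit 1213 bp upstream of its start site, at 9.08, 10.4 and 12.6 in controls and 21.1, 40.6, 22.1, 23.1 and 15.2 in SDS30 (log2 fold change 1.06 ± 0.39). The stronger region at another tabled start site of Plekhb1 had 108, 97.3 and 101 in controls and 103, 122, 114, 127 and 71.0 in SDS30, which overlapped (0.04 ± 0.27). Ndp, which encodes norrin, a ligand of the Frizzled-4 receptor in retinal and brain vessels, had 69.2, 44.3 and 56.2 in controls and 76.7, 96.8, 73.6, 83.8 and 87.7 in SDS30. The region of the replication-dependent histone genes H2ac8, H2bc7 and H2bc8 had 50.3, 48.6 and 39.0 in controls and 80.65, 81.2, 52.6, 57.3 and 73.2 in SDS30; reads of near-identical histone genes can be split between copies, so this value is uncertain. Tmem141 and Mab21l3 had log2 fold changes of 0.34 and 0.69. Gpr84, a fatty acid receptor of myeloid cells, had 16.1, 13.03 and 11.5 in controls and 17.2, 26.5, 22.1, 33.4 and 22.5 in SDS30. Hpn, the transmembrane protease hepsin, had 26.6, 24.3 and 9.17 in controls and 34.4, 85.9, 40.0, 30.8 and 26.8 in SDS30, with 1 low control and 1 high SDS30 library (log2 fold change 1.08, and 0.62 to 1.34 when any 1 library was left out). The summits of Gpr84 and Hpn lay 2969 and 13078 bp from the nearest tabled start site, near the other end of each gene, and neither gene had a tested region at its own start site.

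The lower genes had strong regions of many summits. Usp9x, an X-linked deubiquitinase of neural development, had 284, 313 and 305 in controls and 239, 191, 234, 197 and 233 in SDS30 (log2 fold change -0.46 ± 0.12, unadjusted p = 0.000893). Clock, the transcription factor that pairs with BMAL1 to drive the circadian cycle, had 802, 916 and 990 in controls and 782, 623, 714, 624 and 798 in SDS30 (log2 fold change -0.35 ± 0.10). Its strongest summit lay on chromosome 5 at 76304960 to 76304961, 169 bp upstream of the start site shown above. Bend3, a BEN domain repressor that binds CpG-rich DNA, had 903, 989 and 958 in controls and 768, 684, 842, 732 and 776 in SDS30, and its 14 summits also put it among the widest regions. Sccpdh had 594, 636 and 602 in controls and 505, 462, 468, 540 and 506 in SDS30. Chd1, a chromatin remodeller whose chromodomains bind H3K4me3 itself, had 555, 591 and 552 in controls and 493, 390, 456, 461 and 485 in SDS30 (log2 fold change -0.31 ± 0.09). Map3k8, a kinase of inflammatory signalling, Naa30, the catalytic subunit of an N-terminal acetyltransferase, and Ranbp6, an importin, had log2 fold changes of -0.28, -0.29 and -0.35. The Ranbp6 region did not lie at its tabled start site, where values were 279, 254 and 242 in controls and 262, 203, 285, 242 and 204 in SDS30 (-0.12 ± 0.13).

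**Figure D4:**
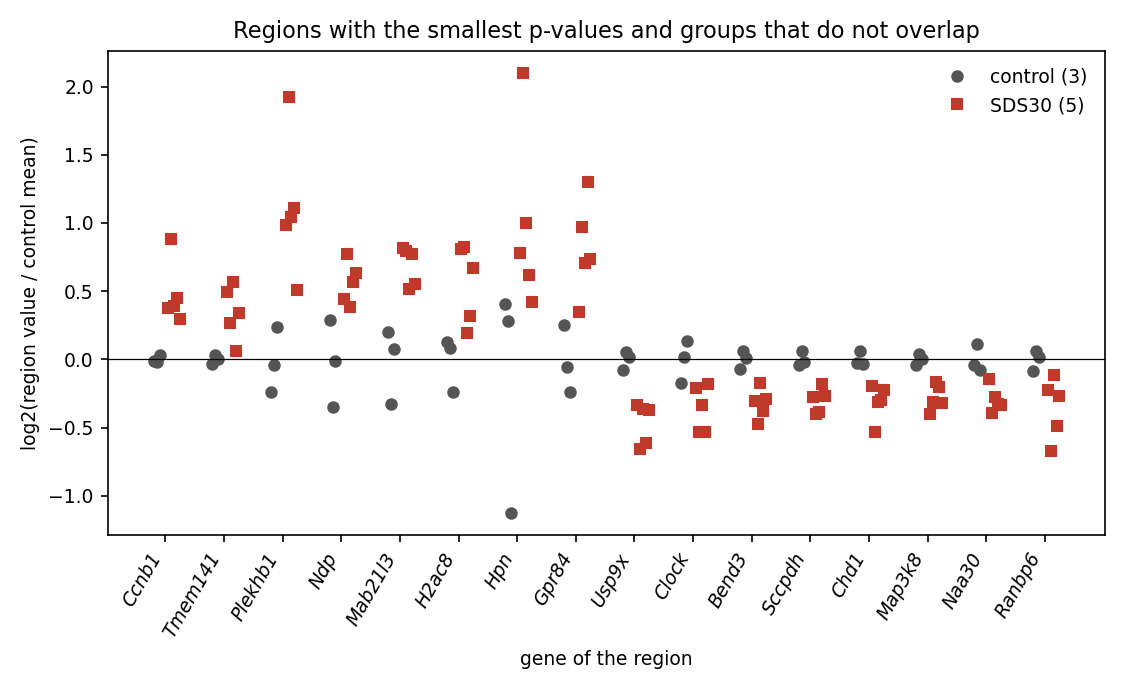
Region values of the 8 higher and 8 lower genes as log2 of the value over the mean of the 3 controls; circles are controls and squares SDS30. Higher genes are spread widely (Hpn from 26.8 to 85.9 in SDS30) and lower genes sit in a narrow band below 0 (Sccpdh from 462 to 540).

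Beyond 2 kb of any gene boundary, 2 regions per direction were taken by the smallest p. A summit inside Kcnj3, the GIRK1 potassium channel subunit, had 12.6, 6.08 and 5.73 in controls and 38.4, 29.7, 17.9, 18.8 and 19.6 in SDS30 (log2 fold change 1.52 ± 0.35, unadjusted p = 0.000263). A summit inside Lrrc4c, a synaptic adhesion protein that binds netrin-G1, had 6.99, 12.2 and 13.7 in controls and 41.5, 26.6, 21.0, 21.4 and 25.4 in SDS30 (log2 fold change 1.24). The comparison at 10 days shares the controls; there the SDS10 values were 17.1 to 31.1 at the Kcnj3 summit and 19.5 to 39.5 at the Lrrc4c summit. The lower regions were one inside Nrg2, a neuregulin, with 180 to 225 in controls and 115 to 165 in SDS30, and one inside Gpr153, an orphan receptor, with 32.1, 32.1 and 28.7 in controls and 13.3, 7.81, 21.0, 17.1 and 20.3 in SDS30. Among regions of 10 or more summits, the smallest p of a higher region was that on chromosome 10 (strongest summit 70520927 to 70520928), with no gene boundary within 2 kb, at 332, 378 and 346 in controls and 464, 436, 442, 411 and 438 in SDS30. Ifrd1, an interferon-related regulator, had 509, 359 and 430 in controls and 451 to 588 in SDS30, and its groups overlapped.

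Of 27 gene lists with 618 measured entries, 0 entries passed the adjusted test; 3 (0.485%) were higher and 19 (3.07%) lower at an unadjusted p under 0.05, near the 0.33% and 2.37% of all protein-coding genes. The medians ran from -0.12 to 0.04, around the median of -0.04 over all protein-coding genes, and 22 were below 0. The lists are described by counts only. A gene's region was the strongest with a summit within 2 kb of either end of its RefSeq model, and is not always at its start site. Of 463 list genes with a tabled start site, 429 had their region at it and 34 had it elsewhere. Values at the start site are given for only some of these genes. For example, Aldoc, Atp5d and Dlg3 had log2 fold changes of 0.04, 0.11 and -0.14 at the region used. At their start sites these were 0.39, -0.28 and 0.22. With the region at the start site 0 entries passed, and the median of the ependymal and choroid list turned from -0.10 to 0.05 and that of astrocytes from -0.01 to 0.02.

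The H3K4 machinery is described by counts, beside the 35.3% of all protein-coding genes that were higher. Of 21 measured methyltransferase genes and shared subunits, 4 were higher and 17 lower (median -0.08), and of 13 demethylases and partners 2 were higher and 11 lower (median -0.10). With the region at the gene's own start site, 4 methyltransferase genes and subunits were higher and 11 lower (median -0.04). Of the demethylases and partners, 2 were then higher and 9 lower (median -0.14). The median of all protein-coding genes was -0.04. Smyd3, a lysine methyltransferase, had 528, 498 and 504 in controls and 448, 447, 469, 404 and 407 in SDS30, with no overlap (log2 fold change -0.23). Kmt2a, which encodes MLL1, had a log2 fold change of -0.08 ± 0.12, Setd1a -0.12 ± 0.13 and Kdm1a, or LSD1, -0.14 ± 0.10, all with groups that overlapped. Among other chromatin genes 7 were higher and 20 lower.

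The glucocorticoid list, receptors, chaperones and steroid-responsive genes, had 8 members higher and 16 lower (median -0.02). Fkbp5, the co-chaperone that lowers the receptor's affinity for hormone, had 414, 472 and 487 in controls and 392.3, 370, 369, 384 and 369 in SDS30, all below the controls (log2 fold change -0.28 ± 0.11, unadjusted p = 0.0238). Zbtb16, a steroid-induced transcription factor, had 1316, 1295 and 1230 in controls and 1427, 1350, 1362, 1388 and 1512 in SDS30, all above them (log2 fold change 0.14); its strongest single summit had -0.02. The receptors Nr3c1 and Nr3c2 had log2 fold changes of -0.02 and 0.02, and Crhr1, the receptor of corticotropin-releasing hormone, -0.01, with overlapping groups and signs that turned under other settings.

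The medians of 6 neuronal lists depended on single controls. GABA genes had 10 higher and 9 lower (median 0.04), synapse genes 17 and 13 (0.01), excitatory neuron markers 11 and 9 (0.04), inhibitory neuron markers 9 and 6 (0.02), glutamate receptor subunits 9 and 13 (-0.02), and stress peptides and receptors 10 and 16 (-0.02). Control 1 had the lowest summed value of the 8 libraries in each of these 6 lists, for example 3844 for GABA genes against 5479 and 4983 in the other controls. The SDS30 sums for GABA genes were 5499, 4252, 4249, 4158 and 5558. SDS30 1 and 5 thus lay near control 2, with which they also shared a side of the first principal component. Without control 1 the medians were -0.11 for GABA genes, -0.14 for synapse genes, -0.13 for excitatory and -0.07 for inhibitory markers, -0.19 for glutamate receptors and -0.21 for stress peptides. Without control 2 they were 0.18, 0.08, 0.09, 0.10, 0.11 and 0.07 in the same order. Each of the 6 medians was thus below 0 without control 1 and above 0 without control 2. The monoamine receptor list also had its lowest sum in control 1 (7456), and its median ran from -0.15 to 0.06 when any 1 library was left out. Medians of lists that are not neuronal changed sign too, such as endothelial and mural markers (-0.12 to 0.07) and inflammatory genes (-0.09 to 0.05). Bdnf, the neurotrophin, had 64.3, 105 and 67.6 in controls and 103, 79.7, 62.1, 52.2 and 81.9 in SDS30. A stronger region at another Bdnf start site had 215, 447 and 370 in controls and 419, 283, 236, 240 and 381 in SDS30 (log2 fold change -0.12 ± 0.21); both overlapped. Neurotrophic factors and receptors as a list had 5 higher and 19 lower (median -0.09), and -0.13 without control 1. Drd2, the dopamine D2 receptor, had 26.6, 66.9 and 65.3 in controls and 43.1, 6.25, 22.1, 13.7 and 31.9 in SDS30 (log2 fold change -1.29 ± 0.48, unadjusted p = 0.0131); the groups overlapped through control 1. It also marks striatal projection neurons, of whose 17 measured markers 5 were higher and 12 lower, with summed values of 5984 to 6578 in controls and 5797 to 6747 in SDS30.

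Markers of other cells were as follows. Oligodendrocyte markers had 5 higher and 10 lower (median -0.12), so 33.3% were higher, near the 35.3% of all protein-coding genes. Their summed value was 3002, 3096 and 3041 in controls and 2853, 2980, 2650, 2922 and 2977 in SDS30, without overlap. The summed value of the cell division genes did not overlap either, at 14787 to 14850 in controls and 13578 to 14715 in SDS30. In all other lists of the 27 the summed values overlapped between the groups. The sums had no test, so the lack of overlap in oligodendrocyte markers and cell division genes is a description. Mbp, the myelin basic protein gene, and Olig2, the lineage factor, had log2 fold changes of 0.00. Astrocyte markers had 7 higher and 8 lower, microglia markers 4 and 5 of 9 measured out of 20, and endothelial and mural markers 11 and 9, with summed values that overlapped. The part of cell composition in the region values was not tested.

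Among the remaining lists, splicing factors had 12 higher and 23 lower (median -0.10), lysosome and autophagy genes 10 and 24 (-0.06) and heat shock genes 9 and 22 (-0.05). Lamp1, a lysosomal membrane protein, had 641, 638 and 593 in controls and 547, 479, 520, 545 and 566 in SDS30, without overlap. Cell division genes had 11 higher and 23 lower, with Ccnb1 at the top and E2f3, a transcription factor of S phase entry, at -0.23 (1221, 1319 and 1343 in controls; 1190, 940, 1147, 1051 and 1220 in SDS30). Clock genes had 8 higher and 11 lower, with Clock at the bottom. Respiratory chain subunits had 17 and 18 (median -0.01), immediate early genes 11 and 19 (-0.04) and inflammatory genes 8 and 18 (-0.04). Npas4, a neuronal activity-induced transcription factor, had 16.1, 28.7 and 24.1 in controls and 50.9, 37.5, 23.1, 25.7 and 29.0 in SDS30, so that 3 SDS30 libraries lay above the controls and 2 within their range. That summit lies upstream of the tabled Npas4 start site, at -12189 bp; the region at the start site had 113, 276 and 284 in controls and 262, 156, 172, 163 and 322 in SDS30 (log2 fold change -0.01 ± 0.29). Maff, a small MAF protein, had 465, 428 and 504 in controls and 334, 414, 372, 447 and 401 in SDS30 (log2 fold change -0.25 ± 0.11), with SDS30 replicate 4 inside the range of the controls. Fosb and Nr4a1, both activity-regulated transcription factors, had log2 fold changes of 0.01 ± 0.13 and -0.14 ± 0.16, and their groups overlapped. The Nr4a1 value comes from a summit at -12440 bp, upstream of its tabled start site; the log2 fold change at the start site was 0.05 ± 0.09. Sdha, a catalytic subunit of respiratory complex II that shares its region with Ccdc127, had 330, 273 and 240 in controls and 341, 325, 415, 346 and 280 in SDS30 (log2 fold change 0.28 ± 0.14); its strongest single summit had -0.15. Sart3, a spliceosome recycling factor that shares its region with Iscu, had 440, 541 and 510 in controls and 384, 356, 443, 397 and 471 in SDS30 (log2 fold change -0.28 ± 0.11), with overlap through control 1. Cx3cl1, the neuronal chemokine fractalkine, had 440, 478 and 467 in controls and 521, 534, 494, 504 and 606 in SDS30, without overlap (log2 fold change 0.20).

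**Figure D5:**
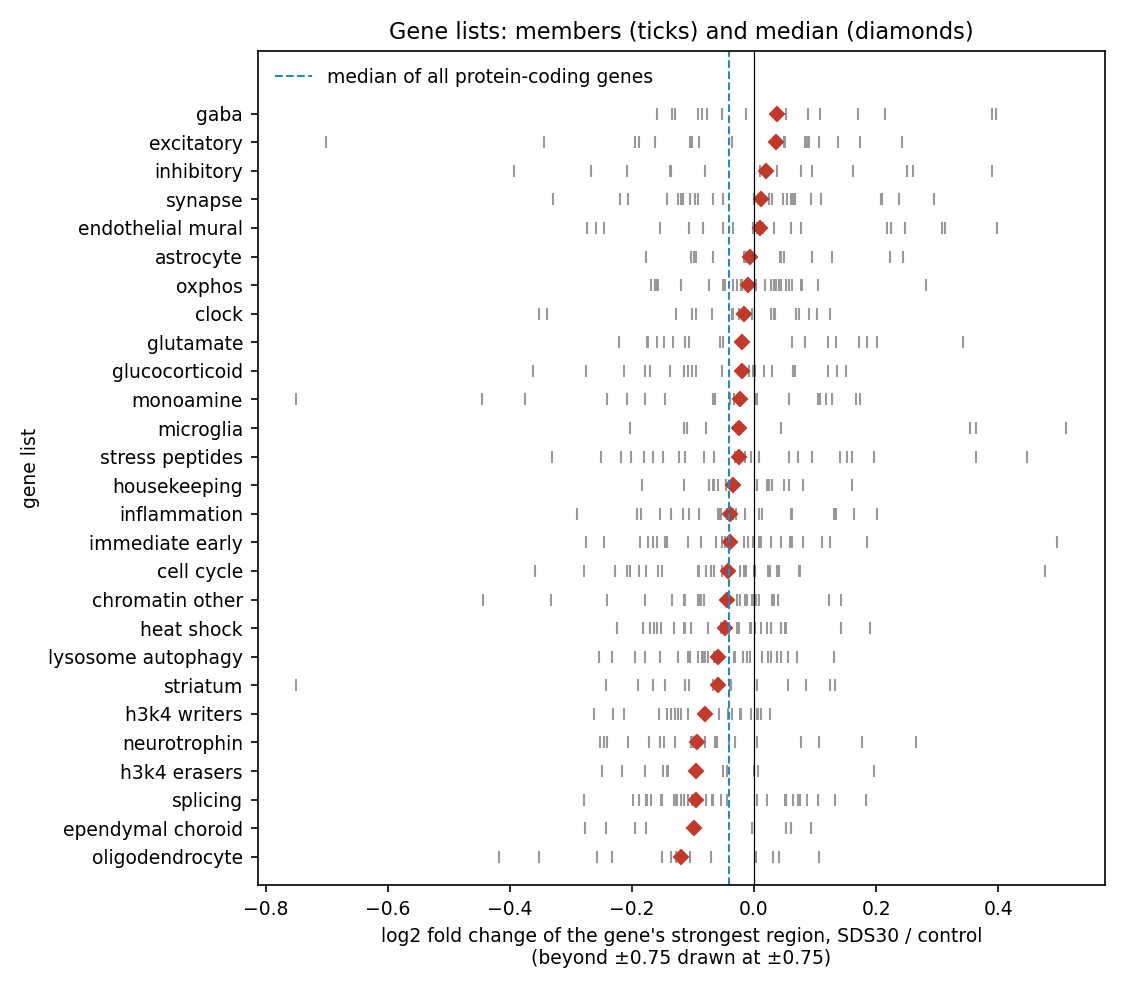
Log2 fold change (SDS30 over control) of the strongest region of each list member (grey ticks) with the median of each of 27 lists (red diamonds); the dashed line is the median of all protein-coding genes, -0.04. Medians lie between -0.12 and 0.04.

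The flank to core ratio was higher in SDS30 in 23 of the 26 lists with flank summits and lower in 3, the monoamine, oligodendrocyte and endothelial lists. The groups did not overlap in 3 lists. For clock genes it was 0.823, 0.801 and 0.844 in controls and 0.901, 1.12, 0.858, 0.991 and 0.874 in SDS30, and for heat shock genes 0.277, 0.294 and 0.292 against 0.338, 0.393, 0.328, 0.296 and 0.306. GABA genes were the third. Core medians were below 0 in 23 of the 26 lists, and flank medians were above 0 in 14. Over all start sites the ratio was likewise higher without overlap (log2 difference 0.14). There, 64.1% of core summits were lower and 61.6% of flank summits higher. The counts over lists use the same windows and are not particular to these genes.

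Short motifs were then counted in the 300-base promoters. Both strands were searched, and the motifs can overlap. The TATA box TATAAA was in 13.6% of start sites, and the 999 genes with it had a median log2 fold change of -0.02 against -0.04 without. The cAMP response element TGACGTCA was in 1.79% (median -0.04), the E-box CACGTG in 7.15% (-0.04) and the glucocorticoid element in 0.475% (-0.03). Of the 6 promoters shown, that of Bend3 held CACGTG and the other 5 held none of the motifs searched.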

How the data were processed

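H3K4me3 ChIP-seq libraries, 3 of control and 5 of SDS30 mice, were compared, with the number of mice behind each not given in the labels; 5 SDS10 libraries entered the fits to estimate the spread. Micrococcal nuclease released mononucleosomes, and libraries had 6 to 8 PCR cycles and single-end reads of 100 bp, per the labels' protocols. The submitters' processing notes name Trimmomatic, Bowtie2, MACS2 and DESeq2 and the builds mm10 and GRCm38.p5, without versions or roles. The deposited signal was made by the authors as reads divided by 1 size factor per library: 100% of values were whole multiples of the smallest step (tolerance 0.001 reads), from which reads were recovered. The peak score deposited by the authors entered no test.

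The unit needs a log-scale test: limma (3.58.1, R 4.3.3) with trended variance on log2(value + 1), all 13 libraries, 1 mean per group, Benjamini-Hochberg threshold 0.05. Fold changes are on this scale, which understates low values. Regions were kept by edgeR's filterByExpr. edgeR (4.0.16) and DESeq2 (1.42.0) on recovered reads were alternatives. Summit shares used log2 of the summit minus log2 of the rest of its region, in regions of 3 or more summits. Scripts were tested on simulated data. Values of 1 per library used two-sided exact permutation tests over 56 splits. Without molecular identifiers, PCR copies of a fragment cannot be told from separate fragments, and neighbouring summits (median gap 179 bp) can share fragments.

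Genes came from a RefSeq table (GRCm38.p6) by the strongest region with a summit within 2 kb of either boundary, which need not be the start site; all 675 listed symbols matched and 606 had a tested region. Start sites came from RefSeq promoters, a table that is not complete. Named genes were the 8 protein-coding genes per direction with the smallest p and no overlap, the extremes of each list, 15 fixed genes, and the regions and summits with the smallest p beyond 2 kb, in wide regions and in the share test. Members and lists were chosen with earlier results of these data known. Alternatives were scaling, filters, pseudocounts, tests, weights, a block for the replicate number and fits without each library in turn.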

Additional observations from a re-analysis of the deposited data

Results flagged for a closer look

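In 116 groups of 5 SDS30 values looked at, 15 had 1 library far from the other 4; chance gives about 1 in 20 groups. Most were SDS30 replicate 2, the shallowest library, and the values of the same ratio are not independent. The flank to core ratio of that library was 0.274 over all start sites, 0.658 within the same region, 0.220 and 0.339 in the middle and high CpG classes, and 0.297 and 0.193 in level classes 3 and 4 of the start sites. Its share of reads 0 to 250 bp from a start site was 13.96%. Without it, the log2 difference of the ratio was 0.11.

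At single genes, SDS30 replicate 2 was apart at Ccnb1 (234), Hpn (85.9) and Irf1 (297). SDS30 replicate 5 was apart at Sstr2 (570) and Kdm1b (575). SDS30 replicate 3 was apart at Tle4 (728), and replicate 1 at Hdac2 (531) and at the summit inside Lrrc4c (41.5).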

How the results depend on the processing

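No region, summit or summit share passed the threshold under any alternative run. To look for pairing, each group's mean was first taken from the log2 region values. What remained correlated at -0.34, -0.19 and -0.07 between same-numbered control and SDS30 libraries, and at -0.35 to 0.36 between unlike-numbered ones. These values show no pairing by number, but so few pairs cannot decide it. With the replicate block 0 regions were called and 1096 had an unadjusted p under 0.05, and these genes changed sign (log2): Pagr1a -0.00896, Nr3c1 0.112, Bdnf 0.121, Fosb -0.00743 and Hdac2 0.0429. The count of regions at an unadjusted p under 0.05 was 4601 with library quality weights, 2083 without control 1, 782 without control 3, 780 without SDS30 2 and 2156 without SDS30 5. The count of summits was 10535 with library quality weights, 3409 without control 3, 3379 without SDS30 2 and 8628 without SDS30 5. With an upstream flank the log2 difference of the flank to core ratio was 0.122. List medians moved with the strongest single summit: glucocorticoid -0.0933, h3k4 erasers -0.173, oxphos -0.0723, cell cycle -0.0187 and striatum -0.197. List medians moved with cyclic loess: clock 0.0512, lysosome autophagy -0.0059, astrocyte 0.0555 and housekeeping 0.0176. With the region at the gene's own start site, an alternative chosen after seeing the data, the ependymal choroid median was 0.0527 and these genes turned: Gdnf -0.0832, Grik5 0.0733, Npas4 -0.0103, Nr4a1 0.051 and Pde10a -0.161. Other named genes whose sign turned had values near 0 or groups that overlapped, apart from Zbtb16. With the strongest summit of the region: Zbtb16 -0.0246, Tef -0.142, Sdha -0.153, Srsf3 -1.46e-05, Atg3 -0.159, Acsbg1 -0.117, Polr2a -0.0676, Bdnf 0.235 and Grin2b -0.241. With edgeR on recovered reads: Pagr1a -0.000698, Nr3c2 -0.00151, Fosb -0.00516 and Kdm5c -0.0101. With DESeq2 on recovered reads: Pagr1a -0.00654, Nr3c2 -8.07e-05, Fosb -0.00421 and Kdm5c -0.0102. With library quality weights: Pagr1a -0.0468, Nr3c2 -0.0239, Gria1 -0.0483, Kdm5c -0.114 and Hdac2 0.00123. With TMM: Nr3c2 -0.00295, Fosb -0.0122 and Kdm5c -0.0134. With library totals: Crhr1 0.00753 and Hdac2 0.001001. With cyclic loess: Crhr1 0.0403, Ntrk2 0.0412 and Hdac2 0.036. Leaving out 1 library gave these ranges of the SDS30 mean minus the control mean: total reads on summits -1644950 to 477606, percent of reads on chromosome X -0.013 to 0.0213 and summits at 0 -11.2 to 18.8. On the log2 scale, SDS30 against control, the ranges were: the flank to core ratio 0.11 to 0.155, cell cycle -0.0759 to -0.0319, ependymal choroid -0.205 to -0.0159, Gdnf -0.0209 to 0.286, Pagr1a -0.19 to 0.209, Kdm5d -0.101 to 0.486, Sox10 -0.108 to 0.279, Acsbg1 -0.0632 to 0.447, Cfap126 -0.024 to 0.224, Nr3c1 -0.259 to 0.119, Nr3c2 -0.0358 to 0.0625, Crhr1 -0.26 to 0.162, Bdnf -0.193 to 0.158, Ntrk2 -0.0785 to 0.0447, Fosb -0.0323 to 0.0766, Gria1 -0.332 to 0.556, Grin2b -0.00526 to 0.312, Kdm5c -0.088 to 0.107 and Hdac2 -0.0529 to 0.0132. The cause of these shifts was not tested.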
